A study of Homo sapiens with 24 samples.

Results

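The genes that make, balance and degrade deoxynucleotides were followed in A2058, an established human melanoma cell line, in 24 libraries of total and polysomal RNA. The 9 genes were chosen by name, as the rows of the count table whose Ensembl identifiers carry the symbols RRM1, RRM2, RRM2B, TYMS, DCK, TK1, DUT, SAMHD1 and DTYMK, and all 9 were found among the 20345 identifiers of the table. The cells had received scrambled siRNA (siCTRL) or siRNA against LSM14A (siLSM14A), an RNA-binding protein of cytoplasmic granules, and were then left untreated (NT) or given hydroxyurea (HU) at 10 mM for 2 h. There were 4 conditions with 3 replicates each, and from every one of the 12 cultures both total RNA and the RNA of heavy polysomes, mRNAs that carry many ribosomes, were sequenced. All cells were incubated with cycloheximide before lysis, and all libraries were made from polyadenylated RNA. All cultures were of 1 cell line, A2058 in the labels and methods, although a legend in the study names A375 for a comparison of translation efficiencies with and without HU. The methods describe the pool of heavy fractions in 2 differing ways, so that which fractions were pooled is uncertain. Nothing in the labels or methods says how the replicate cultures were separated, so that p-values measure the spread between these cultures.

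Ribonucleotide reductase removes the hydroxyl group at the 2′ position of ribonucleoside diphosphates and so makes the precursors of DNA. The enzyme joins a large catalytic subunit, encoded by RRM1, with a small subunit that holds a tyrosyl radical, encoded by RRM2 in S phase or by RRM2B, a target of p53 that also serves cells outside S phase. HU quenches this radical, and the pools of deoxynucleotides then run down during replication. TYMS, TK1, DTYMK and DUT feed the thymidine branch, DCK salvages deoxycytidine and purine deoxynucleosides, and SAMHD1 degrades deoxynucleoside triphosphates. The drug of the study therefore acts on the protein products of RRM2 and RRM2B, and the remaining genes act beside or after the inhibited enzyme.

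Levels are given as CPM, the counts of a gene relative to those of its library, scaled by TMM, the trimmed mean of M-values, and a change is given as a log2 difference with its standard error (SE). The ratio of polysomal to total RNA of a culture is used here as a measure of how far an mRNA was loaded with ribosomes, and its change between conditions is called a change in translation efficiency (TE). All tests were quasi-likelihood F-tests of edgeR over all protein-coding genes that passed a filter on low counts, and a gene was called at an adjusted p-value under 0.05, with the Benjamini-Hochberg adjustment over all genes tested. All 9 genes passed the filter in each of the 25 comparisons. The libraries held 24789280 to 44897501 counts. LSM14A, the gene targeted by the siRNA, lay between 80.8 and 91.5 CPM in the 6 siCTRL libraries of total RNA and between 6.16 and 8.34 CPM in the 6 siLSM14A libraries, a log2 difference of -3.58 (SE 0.0617) over both treatments. The melanocyte markers SOX10 (554 to 665 CPM) and DCT (651 to 911 CPM) were high in total RNA, MLANA was low (5.47 to 10.2 CPM), and of 5 markers of other cell types KRT5 had no counts, PTPRC, EPCAM and CDH1 stayed at or below 0.218 CPM and KRT14 lay between 1 and 2.83 CPM.

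Translation starts at the start codon. The bases around it are shown for the 4 genes with the highest polysomal ratios and for DUT and DCK, 2 genes with lower ratios. Those of RRM2B, which had the lowest ratio, are not shown here. In the canonical transcripts of GENCODE v44lift37 on hg19 (GRCh37), 12 bases before and 6 after the start codon read as follows, with the start codon and the bases at positions -3 and +4 from its A in capitals.
TK1: cccggaggcGcaATGAgctgc
RRM1: ccactagctGcgATGCatgtg
DTYMK: cggtggacaGtcATGGcggcc
RRM2: tgcgcctccActATGCtctcc
DCK: caagactaaGgaATGGccacc
DUT: actctggggGaaATGActccc
All of the 9 genes had a purine at position -3, as had 85.1% of the canonical coding transcripts. A G at position +4, present in 51.5% of transcripts, was found in DCK, DTYMK and RRM2B. A purine at position -3 was thus common to all 9 and could not set them apart. TK1 and RRM1, the mRNAs with the highest polysomal ratios, had an A and a C at position +4. The start codons of other transcripts of these genes were not examined, and whether these bases bear on the polysomal ratio was not tested.

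The 9 mRNAs differed widely in abundance. Per kilobase of the union of their exons, TYMS was the most abundant in total RNA, with a mean of 107 ± 4.12 CPM per kilobase (SD, n = 12 libraries), followed by RRM1 (38.4 ± 2.6), DTYMK (34.3 ± 1.57), TK1 (31.5 ± 2.05), DUT (18.2 ± 1.06), RRM2 (12.7 ± 0.623), DCK (6.09 ± 0.577), RRM2B (4.84 ± 0.38) and SAMHD1 (1.42 ± 0.0556). The ranges of 1 SD around the mean overlapped between RRM1 and DTYMK and between DTYMK and TK1, but not between RRM1 and TK1. Those of the remaining neighbours did not overlap. The order depended on the length used. Per kilobase of the canonical transcript, RRM2 stood at 35.7 ± 1.76 and DTYMK at 78.2 ± 3.58. The annotated exons of RRM2 cover 9153 bases and its canonical transcript 3258. Those of DTYMK cover 2399 bases and its canonical transcript 1051. TYMS remained highest and SAMHD1 lowest with either length. In TYMS, 66.5% of the canonical exons overlap ENOSF1 and TYMSOS on the opposite strand, and whether the authors' counting used the strand is not given in the sources used here, so that reads of these genes cannot be told apart with certainty. RRM2 and DUT have processed pseudogenes, and how many of their reads map to several places was not tested.

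**Figure D1:**
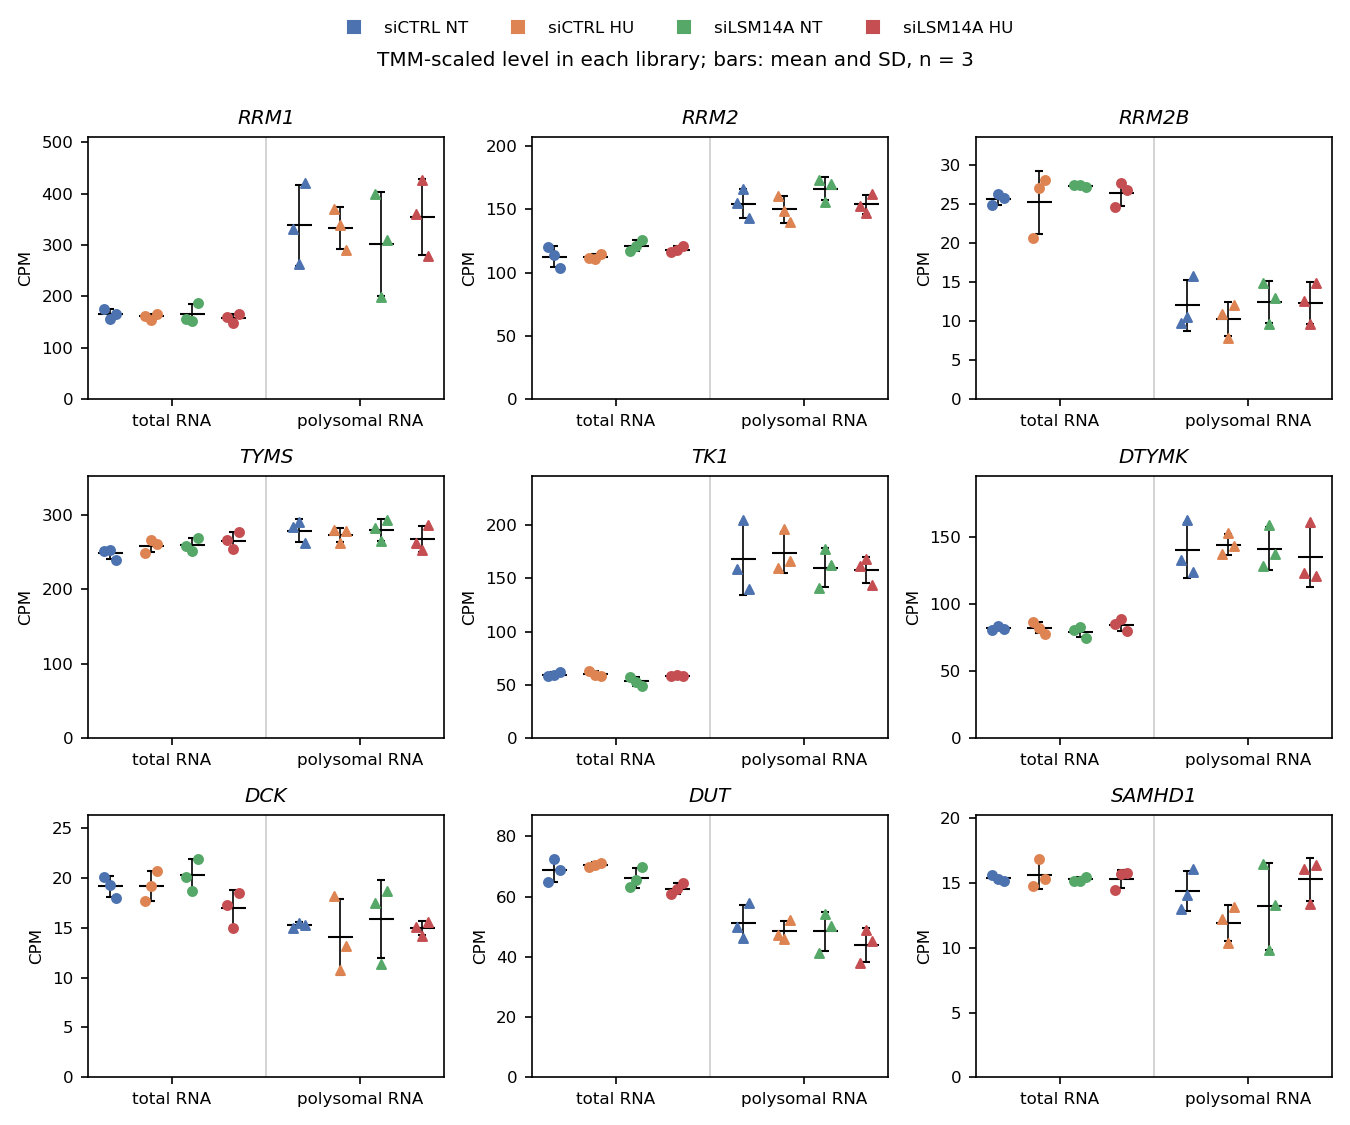
CPM (TMM-scaled) of each gene in each of the 24 libraries, total RNA as circles and polysomal RNA as triangles, coloured by condition, with the mean and SD of 3 replicates. The polysomal values of TK1, from 140 to 205 CPM, all lie above its total RNA values, from 49.3 to 63.5 CPM, and those of RRM2B, from 7.85 to 15.7 CPM, all lie below its total RNA values, from 20.6 to 28 CPM.

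The first comparison asked whether HU altered the mRNAs of the enzyme it inhibits. Positions given here and below span the whole annotated gene, whereas exons are those of its canonical transcript alone. RRM1 (chr11:4115937-4160162, 19 exons) had 176, 156 and 165 CPM in total RNA of siCTRL NT cells and 162, 155 and 166 CPM after HU. RRM2 (chr2:10260825-10351851, 10 exons) had 120, 114 and 104 CPM without and 112, 111 and 115 CPM with HU. RRM2B (chr8:103216730-103251189, 9 exons), which p53 induces after DNA damage, had 24.8, 26.2 and 25.7 CPM without and 20.6, 27 and 28 CPM with HU. In each of these genes the groups overlapped. The fitted differences were -0.05 for RRM1 (95% confidence interval -0.17 to 0.08), 0 for RRM2 (-0.13 to 0.13) and -0.02 for RRM2B (-0.24 to 0.2), each with an adjusted p-value of 1 by edgeR. Changes of these 3 mRNAs within these intervals remain compatible with the data.

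In siLSM14A cells the groups of all 3 genes overlapped as well. In total RNA, RRM1 had 156, 153 and 188 CPM without and 160, 148 and 165 CPM with HU, a difference of -0.08 (-0.25 to 0.09). RRM2 had 117, 121 and 126 CPM without and 116, 118 and 121 CPM with HU (-0.04, -0.16 to 0.08), and RRM2B had 27.4, 27.4 and 27.1 CPM without and 24.6, 27.7 and 26.8 CPM with HU (-0.05, -0.2 to 0.09). None of the 3 was called, with adjusted p-values of 0.866 to 0.905 by edgeR.

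None of the 9 genes was called for HU in total RNA, polysomal RNA or TE, in siCTRL cells, in siLSM14A cells or over both, by edgeR or by DESeq2. By edgeR no other gene was called either, so that the share of all genes called was 0% in each of these 9 comparisons. DESeq2 called 0.008% of all genes in total RNA of siCTRL cells, 0.0158% in total RNA over both siRNAs, and 0% in the other comparisons of HU. At an unadjusted p-value under 0.05, edgeR counted 0 of the 9 genes and 180 of 12506 in total RNA of siCTRL cells, and 1 of the 9 and 650 of 12497 in total RNA of siLSM14A cells. The 1 gene was DCK (chr4:71858255-71896631, 7 exons), the salvage kinase, with 20.1, 18.7 and 21.9 CPM without and 17.3, 15 and 18.5 CPM with HU in siLSM14A cells, a difference of -0.26 (SE 0.0934, adjusted p = 0.855 by edgeR). In siCTRL cells DCK had 20.1, 19.3 and 18 CPM without and 17.7, 19.2 and 20.7 CPM with HU (0, -0.18 to 0.18). The difference between these effects of HU was -0.26 (-0.53 to 0.01) and was not called.

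The polysomal RNA was more variable, and its intervals were wider. In polysomal RNA of siCTRL cells, RRM1 had 332, 263 and 420 CPM without and 370, 340 and 290 CPM with HU. RRM2 had 155, 166 and 143 CPM without and 161, 149 and 140 CPM with HU, and RRM2B had 9.78, 10.5 and 15.7 CPM without and 10.9, 7.85 and 12 CPM with HU. All groups overlapped, and over the 9 genes the 95% intervals for HU ran from -0.73 to 0.43 in polysomal RNA and from -0.78 to 0.47 in TE. In siLSM14A cells they ran from -0.56 to 0.76 in polysomal RNA and from -0.54 to 0.92 in TE, the widest being that of RRM1. RRM1 had 400, 198 and 309 CPM in polysomal RNA of siLSM14A NT cells, the largest spread of any of the 9 genes within a condition. The change in TE of RRM1 in these cells was thus known only to lie within its interval, up to 0.92 on the log2 scale.

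Pooling both siRNAs narrowed the intervals. The effect of HU on TE over all 12 cultures was 0.17 (SE 0.188) for RRM1, -0.06 (SE 0.0807) for RRM2 and -0.08 (SE 0.185) for RRM2B. For TYMS, the enzyme that methylates dUMP to dTMP, it was -0.09 (SE 0.0752), and for TK1, the thymidine kinase of S phase, -0.06 (SE 0.119). Over the 9 genes the intervals of this comparison ran from -0.47 to 0.56, all with an adjusted p-value of 1 by edgeR. The interaction of HU and siRNA was called for none of the 9 genes and for no other gene in total RNA, polysomal RNA or TE, with 367, 134 and 244 genes at an unadjusted p-value under 0.05.

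**Figure D2:**
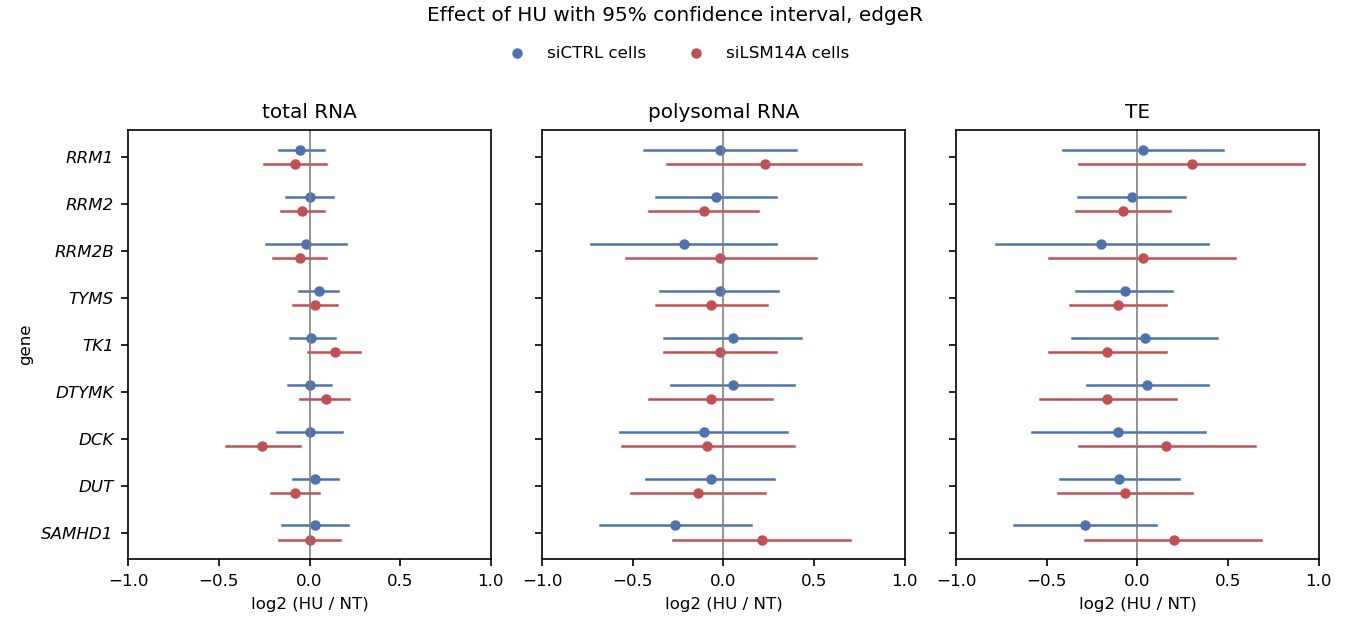
Log2 difference between HU-treated and untreated cells for the 9 genes in total RNA, polysomal RNA and TE, as points with 95% confidence intervals from edgeR, in siCTRL cells (blue) and siLSM14A cells (red). The intervals in total RNA span -0.46 to 0.28, those in TE span -0.78 to 0.92, and all but that of DCK in total RNA of siLSM14A cells include 0.

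Replicates of a condition can also be set side by side without a model. After HU, no gene of the 9 lay wholly above or below the untreated cultures in siCTRL cells, against 5.41% of all genes tested in total RNA, 7.43% in polysomal RNA and 7.4% in TE. In siLSM14A cells TK1 lay wholly above (57.8, 52.8 and 49.3 CPM without and 58.1, 59.3 and 58.7 CPM with HU) and DCK wholly below, 2 of the 9 genes where 11.7% of all genes in total RNA did not overlap. The ratio of polysomal to total RNA of TYMS lay wholly below after HU in siLSM14A cells, at log2 values of 0.12, 0.07 and 0.13 without and -0.02, -0.01 and 0.05 with HU, where 5.78% of all genes did not overlap. Neither TK1 (0.14, SE 0.0672, adjusted p = 0.855 by edgeR) nor TYMS (TE change of -0.11, SE 0.124, adjusted p = 1) was called. Both shares were small counts of 9 genes.

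The second comparison asked what the loss of LSM14A did to the same mRNAs. In untreated cells, siLSM14A changed 71 of 12544 genes in total RNA (0.566%), 2 of 12342 in polysomal RNA (0.0162%) and 0 of 12757 in TE, and none of the 9 genes was among them. In HU-treated cells it changed 100 of 12475 genes in total RNA (0.802%), 8 of 12256 in polysomal RNA (0.0653%) and 0 of 12649 in TE, again without any of the 9. Over both treatments it changed 442 of 12666 genes in total RNA (3.49%), 18 of 12515 in polysomal RNA (0.144%) and 0 of 12855 in TE, and none of the 9. DESeq2 called none of the 9 in these comparisons, where it called 1.59%, 1.52% and 4.95% of all genes in total RNA (without HU, with HU and over both), 0.0648%, 0.18% and 0.32% in polysomal RNA, and 0%, 0% and 0.00778% in TE. At an unadjusted p-value under 0.05 by edgeR, 3 of the 9 genes were counted over both treatments in total RNA, DUT, TK1 and RRM2. That comparison counted 1934 of all 12666 genes (15.3%). In total RNA, 1 of the 9 was counted in untreated cells (10.8% of all genes) and 1 in HU-treated cells (8.54%). In TE, 0 of the 9 and 111 of 12757 genes were counted in untreated cells. In HU-treated cells, TE counted 1 of the 9 and 487 of 12649 genes.

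DUT (chr15:48623208-48635570, 7 exons), the dUTPase that keeps uracil out of DNA, came nearest to a call. In total RNA of HU-treated cells it had 69.7, 70.6 and 71.3 CPM with siCTRL and 60.9, 62.4 and 64.6 CPM with siLSM14A, so that the groups did not overlap, as in 14.4% of all genes. The difference was -0.17 (SE 0.0534, adjusted p = 0.266 by edgeR). Same-numbered replicates of these groups deviated together (correlations of 0.47, 0.22 and 0.41), and when replicate number entered the fit as a block the difference of -0.17 was called (SE 0.0444, adjusted p = 0.00829 by edgeR), with 6.85% of all genes called in that fit. In untreated cells DUT had 64.7, 72.6 and 68.8 CPM with siCTRL and 63.2, 65.5 and 69.9 CPM with siLSM14A, which overlapped (-0.06, -0.19 to 0.08). Over both treatments the difference was -0.12 (SE 0.0404, adjusted p = 0.143 by edgeR), and it was called when the GC content of the genes was corrected for (adjusted p = 0.0465), with 5.68% of all genes called. The polysomal RNA of DUT gave -0.1 (SE 0.105) and its TE 0 (SE 0.109) over both treatments.

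None of the other members was called with siLSM14A either. DCK differed by -0.18 (SE 0.0922, adjusted p = 0.638 by edgeR) in total RNA of HU-treated cells, close to the difference of DUT, but its groups overlapped, with 17.7, 19.2 and 20.7 CPM with siCTRL and 17.3, 15 and 18.5 CPM with siLSM14A. TK1 (chr17:76170172-76183314, 7 exons) had 57.9, 59.2 and 62 CPM in siCTRL NT and 57.8, 52.8 and 49.3 CPM in siLSM14A NT cells, wholly below by a narrow margin (-0.17, SE 0.0675, adjusted p = 0.401 by edgeR). RRM2B lay wholly above in the same comparison, at 24.8, 26.2 and 25.7 CPM in siCTRL NT and 27.4, 27.4 and 27.1 CPM in siLSM14A NT cells (0.09, SE 0.0582), where 17.2% of all genes did not overlap. RRM2 lay wholly above in total RNA of HU-treated cells, at 112, 111 and 115 CPM with siCTRL and 116, 118 and 121 CPM with siLSM14A (0.07, SE 0.0505). There 14.4% of all genes did not overlap. In polysomal RNA of HU-treated cells RRM2B gave 0.28 (SE 0.223, adjusted p = 0.739 by edgeR), with 10.9, 7.85 and 12 CPM with siCTRL and 12.5, 9.56 and 14.9 CPM with siLSM14A, which overlapped.

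SAMHD1 (chr20:35518632-35580296, 16 exons), the triphosphohydrolase, was the only member whose polysomal groups separated with siLSM14A. In polysomal RNA of HU-treated cells it had 12.2, 10.4 and 13.2 CPM with siCTRL and 16.1, 13.4 and 16.4 CPM with siLSM14A (0.36, SE 0.179, adjusted p = 0.739 by edgeR), where 9.59% of all genes did not overlap. Its total RNA had 14.8, 16.9 and 15.3 CPM with siCTRL and 14.5, 15.7 and 15.8 CPM with siLSM14A. The change in TE was 0.39 (SE 0.18, unadjusted p = 0.0482 and adjusted p = 0.778 by edgeR). In untreated cells the TE change of SAMHD1 was -0.11 (SE 0.226), and the difference between the treatments, 0.49 (-0.09 to 1.08), was not called. SAMHD1 rested on 254 to 711 counts per library, the fewest of the 9 genes beside RRM2B and DCK.

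The 9 mRNAs differed from one another far more in their loading onto heavy polysomes than between conditions. The fractions of a culture were joined by condition and replicate number, and their deviations were correlated above 0.1 in all 3 replicates of siLSM14A HU cells alone, so that a range over single cultures rests on this pairing, while the edgeR comparisons of the fractions below do not. In each of the 12 cultures, TK1, RRM1, DTYMK and RRM2 were higher in polysomal than in total RNA, and RRM2B and DUT were lower. TK1 had a median log2 ratio of 1.48 (1.18 to 1.79), RRM1 of 1.02 (0.37 to 1.53), DTYMK, the thymidylate kinase, of 0.78 (0.53 to 0.96) and RRM2 of 0.42 (0.28 to 0.56). DUT stood at -0.5 (-0.68 to -0.25) and RRM2B at -1.15 (-1.78 to -0.71). TYMS (0.11, -0.02 to 0.2), SAMHD1 (-0.22, -0.71 to 0.14) and DCK (-0.24, -0.82 to 0.04) had ratios on both sides of 0.

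**Figure D3:**
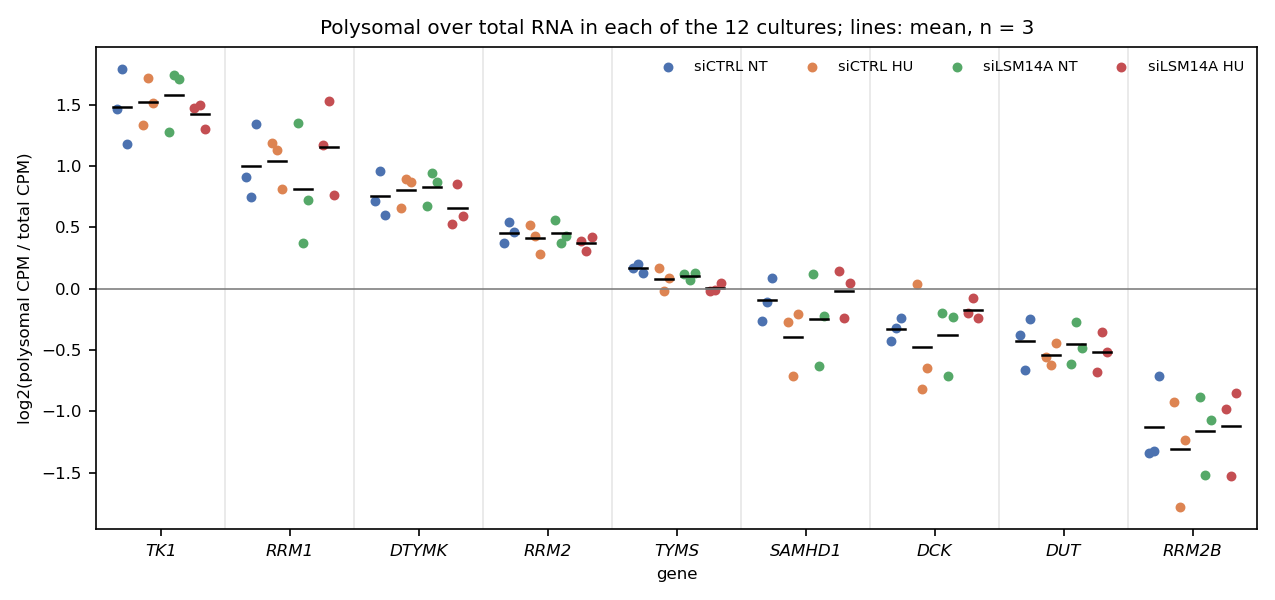
Log2 ratio of polysomal to total CPM in each of the 12 cultures, 3 per condition, ordered by gene, with a line at the mean of each condition. The cultures of TK1 lie from 1.18 to 1.79 and those of RRM2B from -1.78 to -0.71, whereas the 4 conditions of a gene mostly overlap. For TYMS in siLSM14A cells they do not, at 0.07 to 0.13 without and -0.02 to 0.05 with HU.

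Polysomal and total RNA were compared by edgeR within each condition. In siCTRL NT cells 7 of the 9 genes were called, 4 higher and 3 lower, where 63.8% of all genes were called, 31.4% higher and 32.3% lower. In siCTRL HU cells 7 were called, 4 higher and 3 lower, where 73.5% of all genes were called, 36.2% higher and 37.4% lower. In siLSM14A NT cells 6 were called, 4 higher and 2 lower (64.4% of all genes, 32.1% higher and 32.3% lower), and in siLSM14A HU cells 6, 4 higher and 2 lower (66.8% of all genes, 32.8% higher and 34.1% lower). A call was thus what most genes gave in these comparisons, and the number of members called was near that background. The sizes say more: TK1, with fitted differences of 1.49, 1.54, 1.61 and 1.42 in siCTRL NT, siCTRL HU, siLSM14A NT and siLSM14A HU cells, stood between percentiles 97.1 and 99 of all genes tested. RRM1, with 1.03, 1.07, 0.89 and 1.17, stood between percentiles 85 and 94.8, and RRM2, with 0.45, 0.43, 0.48 and 0.38, between percentiles 65.8 and 70.5. RRM2B, with -1.1, -1.28, -1.1 and -1.09, stood between percentiles 8.58 and 11.9, and DUT, with -0.43, -0.52, -0.42 and -0.51, between percentiles 28.5 and 34.

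The remaining genes were called in 1 condition or in none, apart from DTYMK. DTYMK (chr2:242615162-242626359, 5 exons) was called in all 4 conditions, at 0.76, 0.83, 0.86 and 0.67. DCK was called in siCTRL NT cells alone (-0.33, SE 0.113, adjusted p = 0.0296 by edgeR), and not there with the replicate number as a block (adjusted p = 0.0612, 63.7% of all genes called) or by DESeq2 (adjusted p = 0.0669, 62.8%). In siCTRL HU cells DCK missed a call (adjusted p = 0.0526 by edgeR) but was called with the block (-0.46, SE 0.172, adjusted p = 0.0291, 73.8% of all genes called), by DESeq2 (adjusted p = 0.0487, 72.5%), without a filter on low counts (adjusted p = 0.0426, 59.5%) and with at least 10 counts in every library (adjusted p = 0.046, 75.2%). SAMHD1 was called in siCTRL HU cells alone (-0.37, SE 0.138, adjusted p = 0.0305), and TYMS (chr18:657653-673578, 7 exons) in none, with differences of 0.01 to 0.16. Leaving out replicate 2 of siCTRL NT cells left 4 of the 7 genes called there, with RRM2 (0.41, adjusted p = 0.0863 by edgeR), DCK (-0.34, adjusted p = 0.173) and DUT (-0.32, adjusted p = 0.172) no longer called. Leaving out replicate 1 there cost the calls of DCK (-0.28, adjusted p = 0.174) and DUT (-0.45, adjusted p = 0.068). In siCTRL HU cells the call of SAMHD1 was lost without replicate 1 (-0.43, adjusted p = 0.0881) or replicate 2 (-0.21, adjusted p = 0.253), and DCK was called without replicate 1 (-0.71, adjusted p = 0.0127). Without replicate 3 of siLSM14A NT cells, RRM1 (0.97, adjusted p = 0.0587 by edgeR) and DUT (-0.41, adjusted p = 0.126) were not called, and without replicate 1 of siLSM14A HU cells, RRM2 (0.38, adjusted p = 0.0678) and DUT (-0.42, adjusted p = 0.052) were not called. TK1, DTYMK and RRM2B kept their calls in all 12 of these fits.

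The 2 small subunits of ribonucleotide reductase parted between the fractions. RRM2 exceeded RRM2B in every library, and the ratio of their read counts does not depend on how libraries are scaled, although it does depend on the GC correction described below. In total RNA the ratio of RRM2 to RRM2B counts was 4.84, 4.36 and 4.05 in siCTRL NT, 5.42, 4.11 and 4.12 in siCTRL HU, 4.29, 4.42 and 4.64 in siLSM14A NT and 4.73, 4.27 and 4.5 in siLSM14A HU cells. In polysomal RNA it was 15.9, 15.9 and 9.08 in siCTRL NT, 14.7, 19 and 11.7 in siCTRL HU, 11.7, 16.3 and 13.1 in siLSM14A NT and 12.3, 15.3 and 10.9 in siLSM14A HU cells. The ratio was higher in polysomal RNA in 12 of 12 cultures, by a median of 2.84 times (2.24 to 4.63), and the 4 conditions overlapped in both fractions. Every polysomal ratio lay above every total one, whichever fractions are paired. In the edgeR fits the shift was 2.93, 3.28, 2.99 and 2.78 times in siCTRL NT, siCTRL HU, siLSM14A NT and siLSM14A HU cells, and 1.7, 1.75, 1.74 and 1.83 times with the GC correction. Per kilobase of the canonical transcript its median was 6.44 in total and 20.4 in polysomal RNA.

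The mRNA of the large subunit had a higher polysomal ratio than that of the small subunit it pairs with in S phase. RRM1 has 2379 coding bases and RRM2 1170, and the part of coding length in this difference was not tested. RRM1 counts were a median of 1.38 times those of RRM2 in total RNA (1.25 to 1.59) and 2.21 times in polysomal RNA (1.27 to 2.94). The 2 salvage kinases parted as well, with TK1 counts at 3.09 times those of DCK in total RNA and 10.6 times in polysomal RNA, and the ratio of TYMS to DUT rose from 3.85 to 5.8. Each of these 3 ratios was higher in polysomal RNA in 12 of 12 cultures, by medians of 1.52, 3.43 and 1.5 times. For RRM1 over RRM2 the smallest shift, in replicate 2 of siLSM14A NT cells, was 1 times to 3 digits, from 1.27 to 1.27. Total RNA of replicates 1 and 3 of these cells had ratios of 1.33 and 1.49. The count of 12 for RRM1 over RRM2 thus rests on the pairing by replicate number. With the GC correction these shifts were 1.76 to 2.31 times for RRM1 over RRM2 (1.33 to 1.73 without it), 1.21 to 1.42 times for TK1 over DCK (3.04 to 3.92 without it) and 0.913 to 0.975 times for TYMS over DUT (1.43 to 1.54 without it), so that the last turned its direction. The 4 ratios, and their GC correction, were chosen after values were seen and are given without a test.

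**Figure D4:**
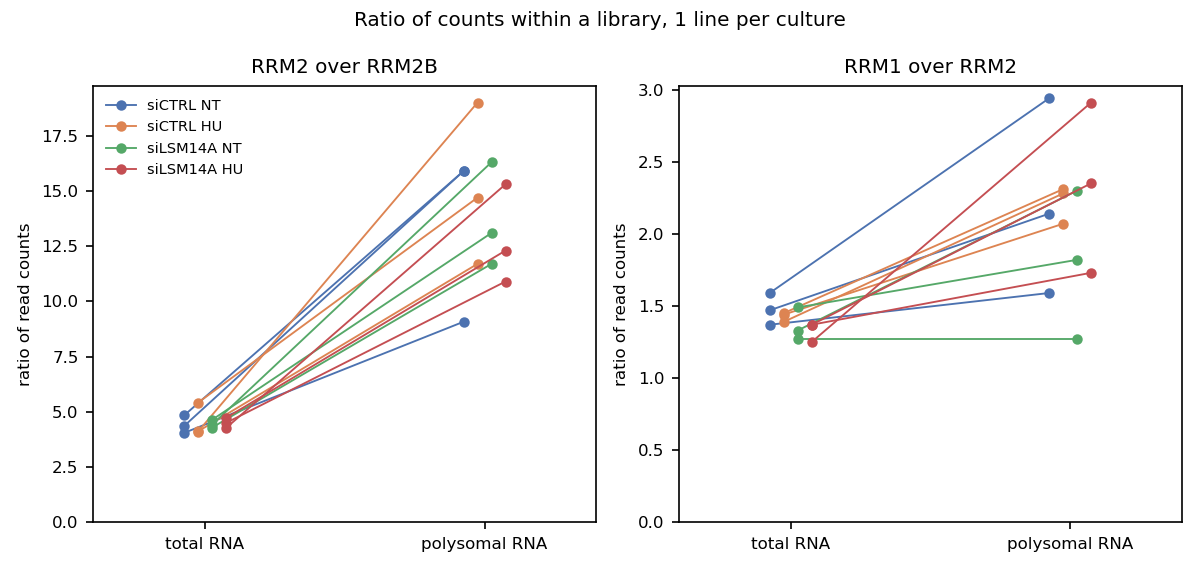
Ratio of read counts of RRM2 to RRM2B (left) and of RRM1 to RRM2 (right) in total and polysomal RNA, with 1 line per culture coloured by condition. The ratio of RRM2 to RRM2B rises from 4.05 to 5.42 in total RNA to 9.08 to 19 in polysomal RNA in each of the 12 cultures.

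The lengths and base composition of the mRNAs were set beside their loading. TK1 had a coding sequence of 705 bases and RRM1 one of 2379, the longest of the 9, against a median of 1311 over all protein-coding genes, and both were strongly loaded. RRM2B had a 3′ UTR of 3631 bases, the longest of the 9, against a median of 1072 over all genes. The GC content of the exons was lowest in RRM2B (37.5%) and DCK (39.3%) and highest in TK1 (62.1%) and DTYMK (54.6%). Over all genes tested, the log2 ratio of polysomal to total RNA rose by 0.34 to 0.86 per 10 percentage points of GC content, depending on the culture. RRM1, with 43.1% GC, was strongly loaded against this trend.

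A correction that removed the trend with GC content from every library changed the loading of several genes. With it, 54.9%, 57.1%, 55.8% and 58.1% of all genes were called in siCTRL NT, siCTRL HU, siLSM14A NT and siLSM14A HU cells. RRM1 came to 1.47, 1.64, 1.34 and 1.63 in the same order and then stood between percentiles 98.2 and 99.4 of all genes. TK1 came down to 0.84, 0.67, 0.88 and 0.76 and DTYMK to 0.36, 0.31, 0.44 and 0.28, and both kept their calls in all 4 conditions. RRM2 gave 0.47, 0.47, 0.52 and 0.42, near its uncorrected values. RRM2B shrank to -0.3, -0.34, -0.28 and -0.45 and was not called in siLSM14A NT cells (adjusted p = 0.083 by edgeR). DUT came to between -0.06 and 0.07 and was no longer called in any condition. DCK turned to between 0.38 and 0.4 and SAMHD1 to between 0.22 and 0.44, and each was called higher in siCTRL NT and siLSM14A HU cells. With the correction RRM1, TK1, DTYMK and RRM2 thus kept their direction and their calls, TK1 and DTYMK at a smaller size, RRM2B kept its direction at a smaller size, and the low loading of DUT, DCK and SAMHD1 was not kept, apart from -0.06 for DUT in siLSM14A HU cells.

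**Figure D5:**
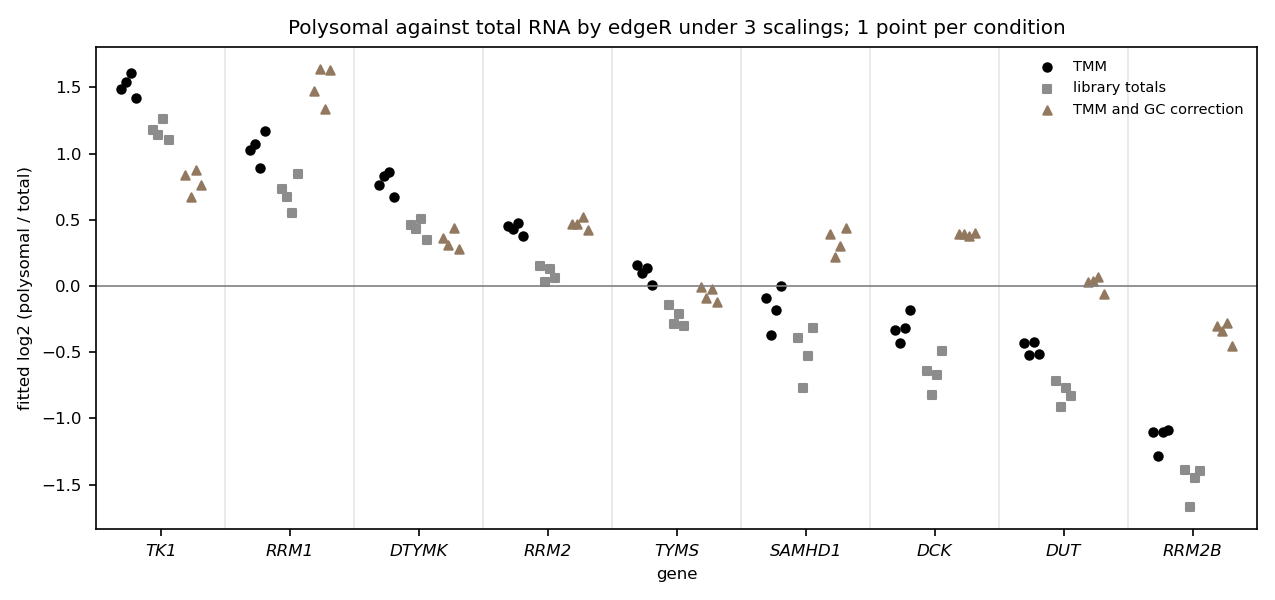
Fitted log2 difference between polysomal and total RNA for each gene, 1 point per condition, with TMM scaling (black circles), library totals in place of TMM (grey squares) and TMM with the GC correction (brown triangles). TK1 and RRM1 lie above 0 under all 3, RRM2B lies below 0 under all 3, and DCK and SAMHD1 lie on both sides of 0.

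The scale of the ratio itself is relative, because a gradient fraction and a total lysate share no absolute standard here. With library totals in place of TMM, the median of all genes moved by -0.3, -0.4, -0.35 and -0.32 in the 4 conditions, and 65.5%, 74.7%, 66.4% and 69.6% of all genes were called. RRM2 then lost its call in each (0.15, 0.03, 0.13 and 0.06), RRM1 lost it in siLSM14A NT cells (0.55, adjusted p = 0.0656 by edgeR), and TYMS was called lower in siCTRL HU and siLSM14A HU cells (-0.29 and -0.3). TK1 (1.1 to 1.26), DTYMK (0.35 to 0.51), RRM2B (-1.67 to -1.39) and DUT (-0.91 to -0.72) kept their directions and calls. DCK was called lower in all 4 conditions (-0.82 to -0.49), and SAMHD1 was called lower in siCTRL NT (-0.39), siCTRL HU (-0.77) and siLSM14A NT cells (-0.53), opposite to their direction with the GC correction. The mitochondrial share of counts, 6.82% to 8.84% in total and 0.628% to 1.95% in polysomal RNA, moved with the fraction, and its part in the shift was not tested.

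The other genes of nucleotide supply were read from lists of named genes. Outside the comparison of polysomal with total RNA, only TXNRD1 and GSR, which keep thioredoxin and glutathione reduced and so supply electrons to ribonucleotide reductase, were called, both in total RNA with siLSM14A over both treatments (TXNRD1 0.14, SE 0.0351, adjusted p = 0.0369; GSR 0.15, SE 0.0382, adjusted p = 0.0419 by edgeR). That was 2 of the 7 genes of the list of reductants and regulators, against 3.49% of all genes. In none of these 21 comparisons was a gene of de novo purine or pyrimidine synthesis, of the kinases, of nucleotide turnover, of the folate cycle, of the E2F targets of S phase or of the p53 targets called, nor any in TE or polysomal RNA.

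The lists differed in how their mRNAs sat on polysomes, and their counts stand beside 31.4% of all genes called higher and 32.3% called lower in siCTRL NT cells. In siCTRL NT cells, 6 of the 10 genes of de novo purine synthesis were called higher in polysomal than in total RNA and 1 lower, with a list median of 0.78 against -0.03 over all genes. GART (1.67, SE 0.096) and PFAS (2.15, SE 0.171), enzymes of the early purine pathway, were among those higher, and ADSS2 (-0.44, SE 0.16) was lower. All 5 genes of de novo pyrimidine synthesis were called higher, with a median of 0.54, led by CAD (2.41, SE 0.23), whose protein catalyses the first steps of the pathway. In the folate cycle that serves TYMS, 4 of 6 genes were called higher, with a median of 0.91, among them MTHFD1 (1.55, SE 0.129) and SHMT2 (1.47, SE 0.145).

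Beside the same shares of all genes, the medians of the kinases and of the reductants and regulators were the lowest of the 8 lists. Of 13 nucleoside and nucleotide kinases, 6 were called higher and 2 lower (CMPK1 -0.38, SE 0.116; HPRT1 -0.31, SE 0.103), with a median of 0.25, and of 13 genes of nucleotide turnover 9 were called higher and 1 lower, with a median of 0.62. The highest kinase by p-value, NME1 (0.88, SE 0.111), is a close paralog of NME2, and whether reads of the pair were split was not tested. Among 7 reductants and regulators, with a median of 0.2, FZR1 (1.09, SE 0.165) and CCNF (0.71, SE 0.195), which direct the degradation of RRM2 protein outside S phase and in G2, were called higher and TXNRD1 (-0.29, SE 0.106) lower. Of 11 E2F targets 8 were called higher, led by MCM2 (1.67, SE 0.104), and 1 lower (CCNE2, -0.76, SE 0.197), with a median of 0.59. Of 14 p53 targets, the group to which RRM2B belongs, 8 were called higher, such as GDF15 (1.15, SE 0.183), and 3 lower, MDM2 (-1.18, SE 0.172), FAS (-0.9, SE 0.213) and ZMAT3 (-0.66, SE 0.139), with a list median of 0.5.

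With the GC correction the medians of these lists in siCTRL NT cells were 0.73 for purine synthesis, 0.71 for pyrimidine synthesis, 0.73 for the folate cycle, 0.17 for the kinases, 0.13 for turnover, 0.26 for the reductants and regulators, 0.33 for the E2F targets and 0.03 for the p53 targets, against 0.03 over all genes. The higher medians of purine and pyrimidine synthesis and of the folate cycle thus stayed, and that of the p53 targets came to the median of all genes. With library totals, the medians of the kinases (-0.05) and of the reductants and regulators (-0.1) turned below 0, where the median of all genes was -0.33.

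The genes whose pattern over the 24 libraries was most like that of each subunit were found by the root mean square difference of log2 CPM, after centring each gene, among 12855 genes. For RRM1 they were XRN2 (0.0786), NPEPPS (0.0895) and COPB1 (0.0969), for RRM2 CTSC (0.0602), CD44 (0.0672) and CLNS1A (0.0695), and for RRM2B PUM2 (0.0837), MTMR2 (0.105) and PHTF2 (0.106). The libraries share their fractions and cultures, so that these patterns mostly follow the difference between total and polysomal RNA.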

How the data were processed

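Total RNA and RNA of heavy polysomes were sequenced from 12 cultures of A2058 cells, 3 for each of the 4 conditions, and samples were grouped by their deposited labels, with the dose and duration of HU taken from the methods. After trimming, the authors mapped the reads to hg19 by STAR 2.6.1a. They counted them on genes of an earlier Gencode release than the one used here for lengths. The deposited values are these raw read counts, not normalized. Whether the counting used the strand is not given in the sources used here. Of the 20345 identifiers, 19637 were found in GENCODE v44lift37, 19086 of them protein-coding, and 708 were not found. The 9 members and the gene lists were chosen with earlier results of these data known.

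Counts of protein-coding genes were tested with edgeR 4.0.16 under R 4.3.3 (quasi-likelihood F-test, TMM scaling, filterByExpr with min.count 10 and min.total.count 15), without a term for the replicate number. P-values were adjusted over all genes tested by the Benjamini-Hochberg method, and 95% confidence intervals came from the same fits. Total and polysomal RNA were fitted separately, polysomal was compared with total RNA within each condition, and TE was the interaction term of condition with fraction. Xtail, the study's own tool, was not used here. Tests were tried on simulated counts first. CPM and ratios shown per library used TMM factors over all protein-coding genes. The GC correction removed from each library a loess curve (span 0.3) of log2 CPM on the GC content of exons. The alternatives were DESeq2 1.42.0, RLE size factors, no filter, at least 10 counts in every library, all gene types, a block for the replicate number, the GC correction, both of these together, the culture as a block, a joint fit of the 24 libraries, and fits without 1 replicate. Library totals in place of TMM for polysomal against total RNA, the length of the canonical transcript, and the GC correction of ratios between members were added after seeing the data.

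Named genes were the 9 members, LSM14A, up to 3 genes per list and direction with the smallest p-value among those called, and the 3 genes whose pattern was most like RRM1, RRM2 and RRM2B. The values of 1 further gene of these lists are not reported here. Total counts per library were 24789280 to 40645263 for total and 28776634 to 44897501 for polysomal RNA. The members had 246 to 13698 counts per library, so that counting error is largest for RRM2B, DCK and SAMHD1. No 2 replicates differed by as little as sampling noise (chi-square per gene of 6.16 to 121, where sampling noise gives about 1). Replicate numbers were taken to pair cultures where all 3 same-numbered pairs of 2 groups had deviations correlated above 0.1. This held in total RNA for siCTRL HU and siCTRL NT (0.33, 0.37 and 0.25) and for siLSM14A HU with siCTRL HU (0.47, 0.22 and 0.41), and in polysomal RNA for siCTRL HU and siCTRL NT (0.32, 0.28 and 0.55). The methods give total RNA as the input of the gradients, and both fractions were joined by condition and replicate number on that basis. Their deviations passed the same rule in siLSM14A HU cells (0.23, 0.23 and 0.36) and not in siCTRL NT (0.11, 0.25 and 0.08), siCTRL HU (0.11, 0.07 and 0.19) or siLSM14A NT cells (-0.43, 0.2 and -0.29).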

Additional observations from a re-analysis of the deposited data

How the results depend on the processing

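For HU, siLSM14A and their interaction, the count of members called stayed at 0 in all alternatives, with these exceptions, each of which called DUT alone in total RNA. With siLSM14A in HU-treated cells, the replicate block gave a count of 1, as did the replicate block with the GC correction. With siLSM14A over both treatments, the GC correction gave a count of 1, as did the replicate block with the GC correction. The replicate block changed no other call in these comparisons. For polysomal against total RNA, leaving out 1 replicate gave 4 to 7 called members in siCTRL NT, 6 to 7 in siCTRL HU, 4 to 6 in siLSM14A NT and 4 to 6 in siLSM14A HU cells. The replicate block with the GC correction gave 4 in siCTRL HU cells. Directions of members called with or without it turned with the GC correction for DCK (0.39 in siCTRL NT and 0.4 in siLSM14A HU), for SAMHD1 (0.39 in siCTRL NT, 0.22 in siCTRL HU and 0.44 in siLSM14A HU) and for DUT (0.03 in siCTRL NT, 0.04 in siCTRL HU and 0.07 in siLSM14A NT). Without a call in either fit, DCK turned to 0.39 in siCTRL HU and 0.38 in siLSM14A NT, SAMHD1 to 0.3 in siLSM14A NT, and TYMS to between -0.12 and -0.01 in the 4 conditions. With the replicate block beside the GC correction, DCK gave 0.37 and 0.4, SAMHD1 0.39, 0.22 and 0.44, and DUT 0.02, 0.04 and 0.05 in the conditions with a call. With library totals, TYMS turned to -0.29 in siCTRL HU and -0.3 in siLSM14A HU cells, an effect of the scale, which moved the median of all genes by up to -0.4. The cause of the turns with the GC correction was not tested further. With 3 cultures per condition, the median SE over all genes was 0.0783 for HU in total RNA of siCTRL cells, and changes of the members smaller than their intervals could not be seen.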
